A study of Mus musculus with 20 samples.

Results

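The 10 genes described here mark the main subtypes of inhibitory interneurons of the cerebral cortex: Pvalb, Sst, Vip, Lamp5, Ndnf, Reln, Npy, Lhx6, Cort and Adarb2. They were chosen by symbol, each symbol was listed once among the 48795 genes of the count table, and all 10 of 10 passed the filter on low counts that left 17313 genes to test. RNA was sequenced from 20 mice in 4 groups of 5, with 17846282 to 24460104 counts per library. Control offspring came from CD-1 dams injected with saline, and offspring of the maternal inflammatory response (MIR) model came from CD-1 dams that received lipopolysaccharide from bacterial membranes at 0.008 mg/kg on gestation day 9. Offspring of both kinds were given the mTOR inhibitor rapamycin or its vehicle (DMSO) 2 hours before the tissue was frozen, which gave the groups control vehicle, control rapamycin, MIR vehicle and MIR rapamycin. The labels name no allele, the model being an exposure of the dam, and neither litter nor age of the single mice is in the labels. The study's methods describe the tissue as microdissected sensory-motor cortex, while the labels name only the brain.

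Cortical interneurons release GABA onto other neurons and fall into families by birthplace and by the genes they use. Cells from the medial ganglionic eminence depend on the transcription factor Lhx6 and become fast-spiking cells that hold the calcium-binding protein parvalbumin (Pvalb) or cells that release somatostatin (Sst), some of which also make cortistatin (Cort) or neuropeptide Y (Npy). Cells from the caudal ganglionic eminence carry Adarb2, which encodes a brain member of the RNA-editing enzyme family, and include cells that release vasoactive intestinal peptide (Vip) and inhibit other interneurons, and neurogliaform cells that carry Lamp5, a membrane protein of the LAMP family. Many neurogliaform cells of the outermost layer secrete NDNF, a neurotrophic factor, and reelin (Reln), the large matrix protein that guides cortical layering and in the adult acts at synapses. None of these genes is confined to cortical interneurons: Reln is made by cerebellar granule cells and Cajal-Retzius cells, Pvalb by cerebellar Purkinje and basket cells, Lhx6, Sst and Npy by cells of the striatum, and Lamp5 by some excitatory neurons.

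Promoters are shown for the peptide genes because somatostatin transcription is the textbook case of control through the cAMP response element, the site bound by the activity-regulated factor CREB. RefSeq promoter windows of 250 bases before to 50 bases after the start (build GRCm38.p6) matched 9 of the 10 genes with 13 windows. The full palindrome TGACGTCA was searched on both strands and was held by 1 of the 9 genes, Sst, and by 1.79% of all 32851 promoter windows. The shorter letters TGACG, which the palindrome contains, were found on either strand in 3 of the 9 genes (Sst, Vip and Cort) and in 20.8% of all windows. The stretches below run from 100 bases before to 10 bases after the start, with the matched letters in capitals (Sst chr16:23890835-23890944, minus strand, first matched base at -48; Vip chr10:5639118-5639227, plus strand, at -79; Cort chr4:149126754-149126863, minus strand, at -18, where the match lies on the opposite strand and reads CGTCA).
Sst: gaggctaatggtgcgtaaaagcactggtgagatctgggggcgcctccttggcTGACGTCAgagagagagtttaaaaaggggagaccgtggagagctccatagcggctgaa
Vip: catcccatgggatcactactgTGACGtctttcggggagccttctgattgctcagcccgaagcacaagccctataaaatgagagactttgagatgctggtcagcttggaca
Cort: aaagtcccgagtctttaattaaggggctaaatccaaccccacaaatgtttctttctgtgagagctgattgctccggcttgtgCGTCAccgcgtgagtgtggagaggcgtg
Such a match describes letters only, and no binding was measured.

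Several libraries stood apart by markers of other brain regions or by base composition. Control vehicle 1 held 5760 CPM (counts scaled by library size) of the 14 striatal markers summed, against 343 to 365 in the other control vehicle libraries and 356 to 733 in the other groups, and its cortical glutamatergic markers were low, with 0.871 CPM of Neurod6 and 8.97 of Tbr1 against 31.3 to 142 and 54.3 to 231 in the other 19 libraries. Control vehicle 2 held 2940 CPM of the 9 cerebellar markers, against 30.6 to 39.8 in the other libraries of its group and 12.1 to 33.9 in the other groups. The 9 cortical excitatory markers summed to 2470 CPM in control vehicle 2 and 1950 in control vehicle 1, against 5520 to 10500 in all other libraries. Control vehicle 3 held 1300 CPM of the 10 choroid plexus markers, against 17.1 to 53.2 in the rest of its group and 2.97 to 15.4 elsewhere. At least 1 of the 9 cerebellar markers was at 0 counts in every library but control vehicle 2. Control rapamycin 1 stood apart by base composition: its deviation from the median library rose by 0.556 on the log2 scale for each 10 percentage points of GC in the longest transcript, while the slopes of the other libraries lay between -0.0656 and 0.0979. Smaller excesses were present elsewhere: control rapamycin 4 held the 733 CPM of striatal markers, and the mean log2 level of hippocampal markers stood 1.84 above the median library in MIR vehicle 1, against -0.47 to 0.08 in the rest of its group. MIR vehicle 1 was also the library with the highest Sst and Cort and the lowest Pvalb, and the part of these markers was not tested. Results are given with all 20 libraries and with the 17 that remain without control vehicle 1, 2 and 3. Values without control rapamycin 1 are given only for the Ndnf and Reln changes in control offspring, pairs of members and counts of calls. Other fold changes are not given without that library, also where it was the extreme of its group.

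**Figure D1:**
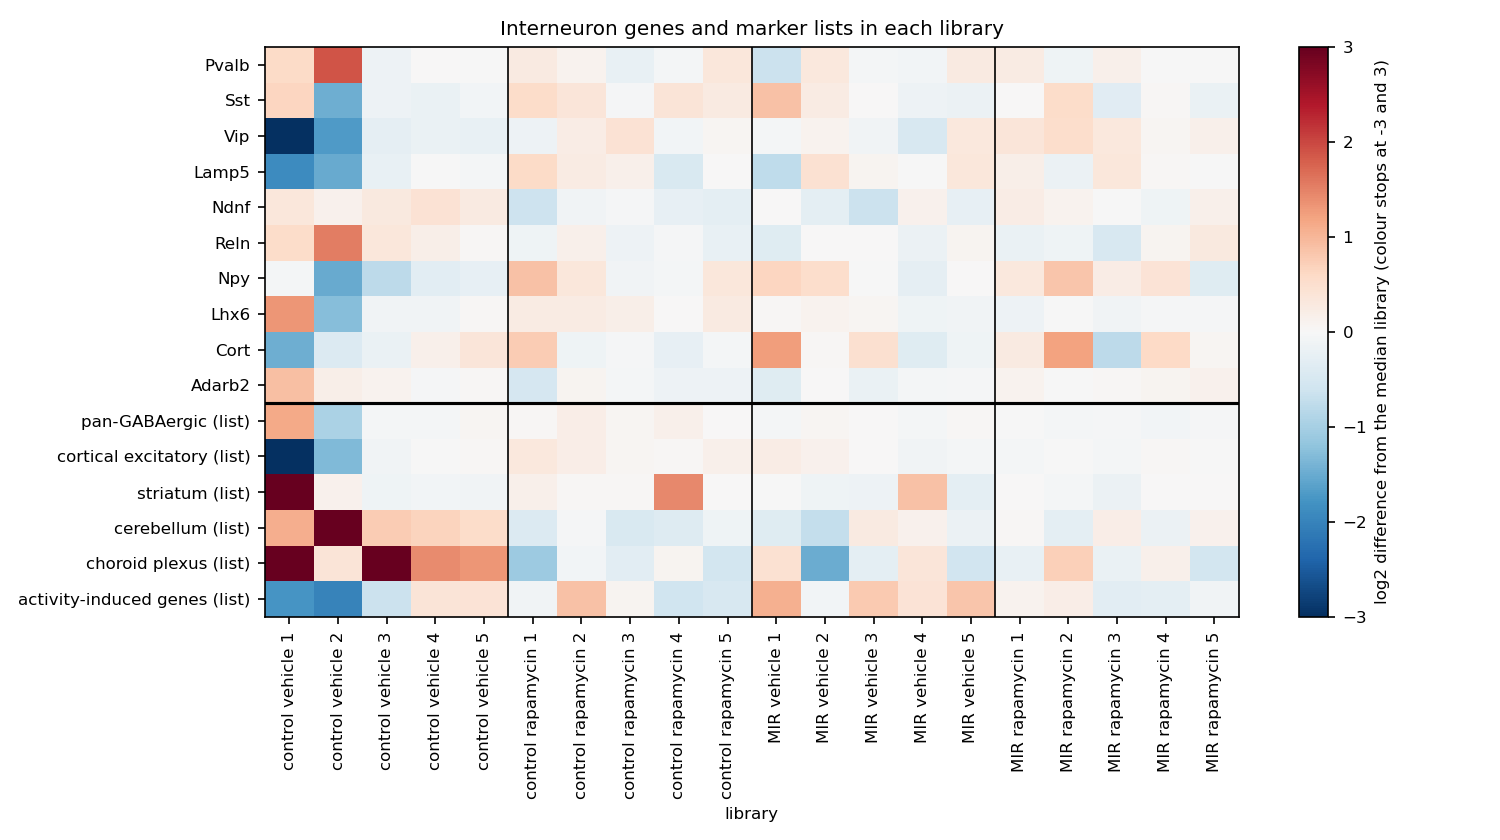
Each cell is the log2 difference of a gene (rows above the line, from CPM) or of the mean of a marker list (rows under it) from the median library, for 20 libraries in columns, with the colour stopping at -3 and 3. Control vehicle 1 and 2 carry the strongest colours in both the interneuron genes and the striatum, cerebellum and cortical excitatory lists.

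Per length of exon, the 10 genes spanned almost 2 orders of magnitude in the 17 libraries, as medians of CPM per kb of merged exon. Sst was highest at 155, followed by Npy at 95.9, Lamp5 at 71.3, Pvalb at 49.6 and Vip at 17.4. The low group held Lhx6 at 4.97, Reln at 4.55, Adarb2 at 2.88, Cort at 2.41 and Ndnf at 1.77. The neighbours Npy and Lamp5, Lhx6 and Reln, Adarb2 and Cort, and Cort and Ndnf lay closer than 1 SD over the libraries of at least one of the pair, so their order was not resolved. Merged exons count every annotated exon, which lowers the per-length level of Reln in particular (23.7 kb merged against 11699 bases in its longest transcript). Raw counts were ample for 9 of the genes, with 32 to 7264 per library, and thin for Cort, with 13 to 79.

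**Figure D2:**
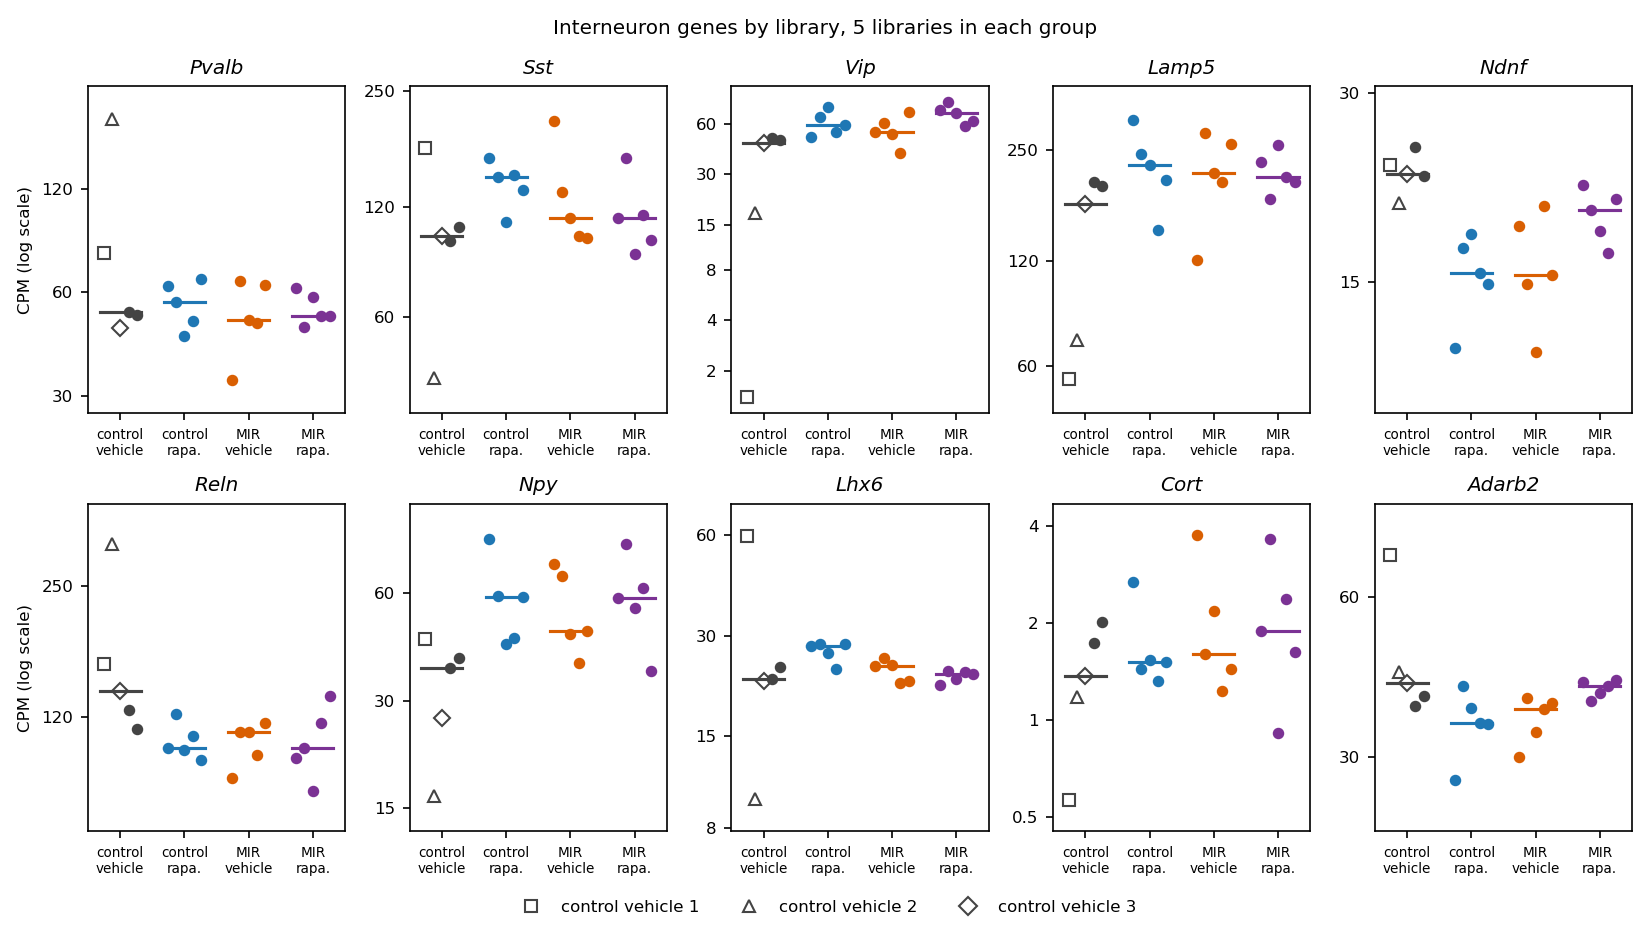
CPM on a log axis for the 10 genes in 5 libraries of each group, with bars at group medians and open symbols for control vehicle 1 (square), 2 (triangle) and 3 (diamond). The open symbols hold most of the extremes, and in Ndnf alone among the genes with a called change the 5 control vehicle libraries lie together, from 20.0 to 24.6.

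Ndnf was the member whose control vehicle libraries lay closest together, and it was lower in control offspring given rapamycin. The gene lies at chr6:65671590-65712326 on the plus strand (mm10, GENCODE M21). Control vehicle 1 to 5 stood at 23.0, 20.0, 22.3, 24.6 and 22.1 CPM, and control rapamycin 1 to 5 at 11.8, 17, 17.9, 15.5 and 14.9. No library of one group overlapped the other. The level fell by 0.54 on the log2 scale (SE 0.13, 95% interval -0.81 to -0.27, adjusted p = 0.0211 by edgeR's quasi-likelihood test). The call was lost when control rapamycin 1, the lowest of its group and the library with the steep GC slope, was left out, because the change then measured -0.46 and missed the fold threshold at an adjusted p of 0.0441. The transcript of Ndnf is long and poor in GC (10101 bases, 41.5%), and with each library's GC slope as a covariate the change was -0.46 with an adjusted p of 0.047, which again missed only the fold threshold. Without control vehicle 1, 2 and 3 it was -0.60 (SE 0.17, adjusted p = 0.128), so the size was as large without these libraries and the call was lost. Control vehicle 4 and 5 still held 17.1 and 20.8 CPM of choroid plexus and 39.3 and 32.9 CPM of cerebellar markers, against 2.97 to 6.49 and 12.1 to 21.5 in control rapamycin, and the part of these markers was not tested.

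Control vehicle was also the higher group against MIR offspring under vehicle, in a comparison that shares its libraries with the last one. MIR vehicle 1 to 5 stood at 18.4, 14.9, 11.6, 19.8 and 15.4 CPM, all under the 5 control vehicle libraries, and the difference was -0.49 on the log2 scale (SE 0.13), which did not pass the test (adjusted p = 0.086 by edgeR's quasi-likelihood test). It was -0.55 without control vehicle 1, 2 and 3 (adjusted p = 0.502). MIR rapamycin 1 to 5 stood at 21.4, 19.5, 18.1, 16.7 and 20.3 CPM, between the control vehicle group and the other groups, with overlap on both sides. Rapamycin in MIR offspring thus measured 0.26 (SE 0.13, 95% interval -0.01 to 0.53, adjusted p = 1), opposite in sign to the change in control offspring. Under rapamycin MIR was above control offspring by 0.32 (SE 0.13, adjusted p = 0.417), with the same value over the 17 libraries (adjusted p = 0.254). The difference between the rapamycin effects was 0.80 on the log2 scale (SE 0.18, unadjusted p = 0.000276 by edgeR's quasi-likelihood test) and did not survive adjustment (adjusted p = 0.318). It was 0.87 over the 17 libraries (adjusted p = 0.623) and 0.69 with the GC slope as a covariate (adjusted p = 0.467). By p it ranked 8 of 17313 genes with all libraries and 20 of 17993 over the 17, and no gene was called for the interaction in either set.

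Reln was also called lower after rapamycin in control offspring, but the size of the change moved with the libraries used. The gene spans chr5:21884454-22344702 on the minus strand. Control vehicle 1 to 5 stood at 161, 317, 139, 125 and 112 CPM and control rapamycin 1 to 5 at 101, 122, 99.6, 108 and 94.1. The groups overlapped, and control vehicle 2 was nearly 2 times the next library. The level fell by 0.70 on the log2 scale (SE 0.21, 95% interval -1.15 to -0.26, adjusted p = 0.049 by edgeR's quasi-likelihood test). Leaving out 1 library at a time ended the call in 17 of 20 fits, with adjusted p-values of 0.0243 to 0.142. Without control vehicle 2 alone the change was -0.36 (adjusted p = 0.142), and without control vehicle 1, 2 and 3 it was -0.18 (95% interval -0.51 to 0.16, adjusted p = 0.649). The part of the cerebellar RNA of control vehicle 2 in its Reln level was not tested. Reln shares 246 exon bases (1.04%) with the antisense gene Gm10475, whose reads cannot be told apart if strand was not used.

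In MIR offspring the Reln libraries lay together. MIR vehicle 1 to 5 stood at 85.2, 110, 110, 97.0 and 116 CPM and MIR rapamycin 1 to 5 at 95.4, 101, 79.0, 116 and 135, with full overlap. Rapamycin in MIR offspring measured 0.02 on the log2 scale (SE 0.21, 95% interval -0.42 to 0.47). MIR against control offspring under vehicle measured -0.72 (SE 0.21, adjusted p = 0.115) with all libraries and -0.19 (adjusted p = 0.88) without the 3. Of the markers of Cajal-Retzius cells, a further source of reelin, the 5 listed summed to 77.5 CPM in control vehicle 2 and to 1.14 to 7.84 in the other 19 libraries. Both Lhx1 and Lhx5 of that list are made by the cerebellum as well.

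**Figure D3:**
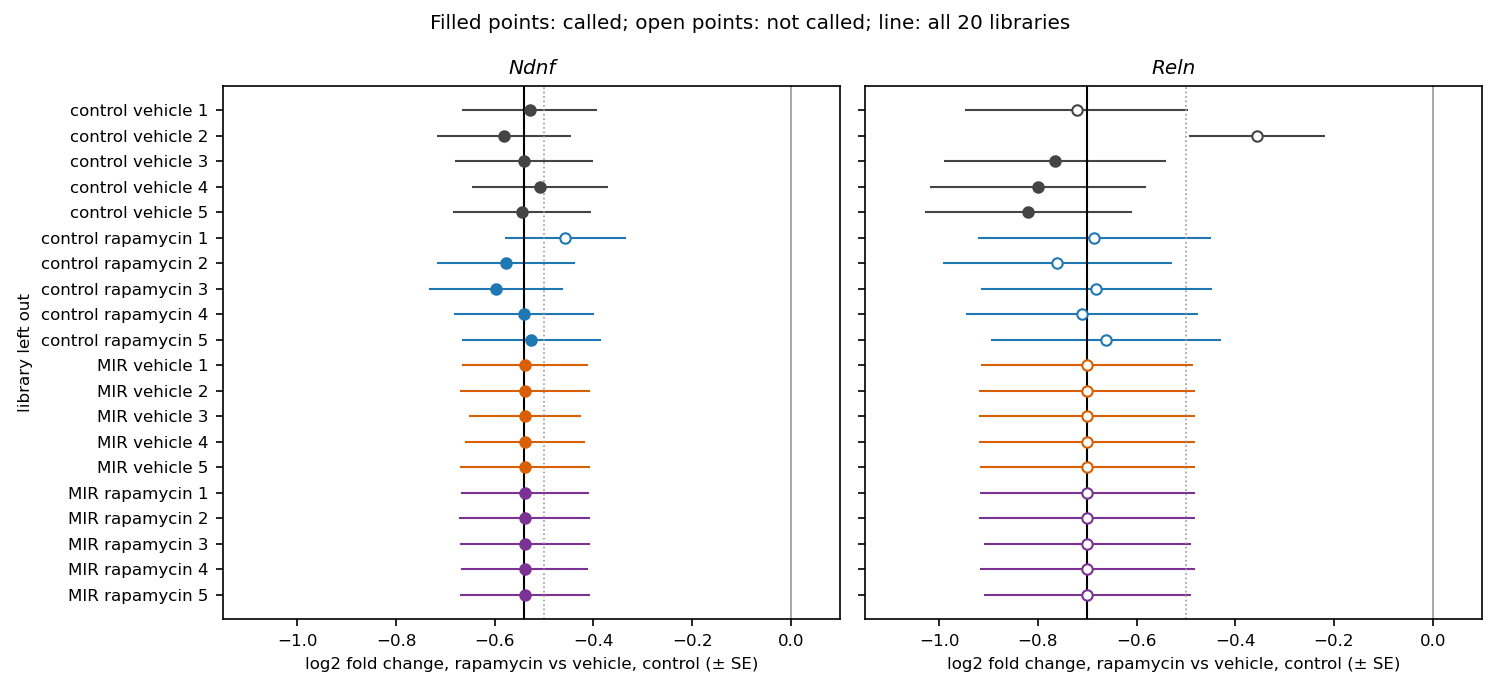
Log2 fold change (± SE) of Ndnf and Reln for rapamycin against vehicle in control offspring with each of the 20 libraries left out in turn, filled where called, with the fit of all 20 libraries as a solid line and the fold threshold as a dotted line. Ndnf stays between -0.60 and -0.46 and is called in 19 of 20 fits, while Reln moves to -0.36 without control vehicle 2 and is called in 3 of 20.

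Across the 10 genes, Ndnf and Reln were the only members called in any of the 7 comparisons, both lower after rapamycin in control offspring, where 5.23% of all tested genes were called and 3.71% were called lower. No member was called for MIR against control offspring under vehicle (0.0982% of genes called) or under rapamycin (0% called), for rapamycin in MIR offspring (0.0173%), for the interaction (0%), or for the average MIR effect (0.606%) and the average rapamycin effect (1.42%). At an unadjusted p under 0.05 in edgeR's quasi-likelihood test, 5 of the 10 members passed for MIR under vehicle (16.3% of all genes), 5 for rapamycin in control offspring (27.3%), 1 for MIR under rapamycin (10.1%) and 0 for rapamycin in MIR offspring (4.99%). The counts were 3 for the interaction (12.7%), 1 for the average MIR effect (13.2%) and 2 for the average rapamycin effect (19%). For MIR under vehicle 1 member was called by DESeq2 (Reln), 1 by a likelihood ratio test in edgeR (Reln) and 1 by voom in limma (Ndnf), and these tools called 0 in the other 5 of these comparisons. The vehicle comparison of MIR and the rapamycin comparison of control offspring share the control vehicle libraries. No member was called in any comparison over the 17 libraries, where calls were few among all 17993 tested genes. Such calls numbered 0 for MIR under vehicle, 36 for rapamycin in control offspring, 22 for rapamycin in MIR offspring and 31 for MIR under rapamycin. They numbered 0 for the interaction, 116 for the average MIR effect and 169 for the average rapamycin effect. Over these libraries an unadjusted p under 0.05 in the same test was reached by 1 member for MIR under vehicle (6.89% of genes), 2 for rapamycin in control offspring (13.9%), 1 for rapamycin in MIR offspring (8.26%) and 3 for MIR under rapamycin (15.6%). It was reached by 3 for the interaction (7.5%), 0 for the average MIR effect (11.8%) and 1 for the average rapamycin effect (15%).

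Groups of 5 that did not overlap in CPM were likewise few. Under vehicle only Ndnf was fully lower in MIR than in control offspring, where 3% of all genes separated in either direction. After rapamycin in control offspring Ndnf was fully lower and Vip fully higher, against 6.53% of all genes. In MIR offspring no member separated with rapamycin (2.78% of genes), and under rapamycin Lhx6 was fully lower in MIR than in control offspring (4.12% of genes). Over the 10 members the median log2 fold change was 0.14 for rapamycin in control offspring and 0.05 for MIR under vehicle, against -0.03 and -0.02 over all tested genes.

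**Figure D4:**
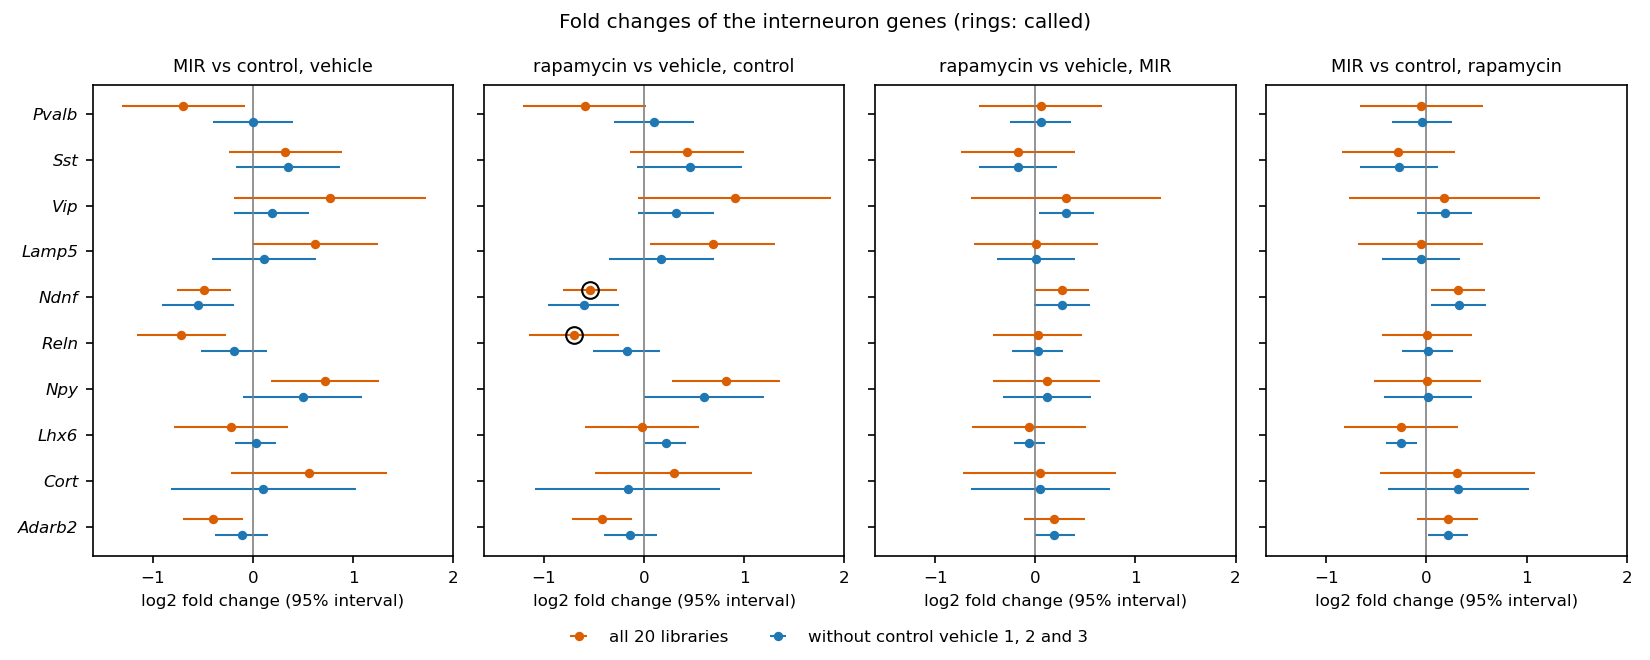
Log2 fold change with its 95% interval for the 10 genes in 4 comparisons, from all 20 libraries and without control vehicle 1, 2 and 3, with rings on called values. Reln, Pvalb, Vip, Lamp5, Npy, Cort and Adarb2 lie nearer to 0 in both comparisons with control vehicle when the 3 libraries are left out. Ndnf and Sst do not, and Lhx6 does so only for MIR under vehicle.

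Pvalb, the calcium buffer of fast-spiking cells, was above 65.8 CPM only in control vehicle 1 and 2. Control vehicle 1 to 5 stood at 77.9, 192, 47.2, 52.5 and 51.6 CPM, and control vehicle 2, the library with cerebellar markers, was the outlying one. Control rapamycin ranged from 44.9 to 65.8, MIR vehicle from 33.3 to 64.8 and MIR rapamycin from 47.4 to 61.8. Those 3 groups overlapped one another throughout. MIR against control offspring under vehicle measured -0.69 on the log2 scale (SE 0.29, adjusted p = 0.243 by edgeR's quasi-likelihood test) with all libraries, -0.14 without control vehicle 2 and 0.00 (95% interval -0.40 to 0.40) without control vehicle 1, 2 and 3.

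Other genes of parvalbumin cells were called in part after rapamycin in control offspring: 1 of 14 rose and 2 fell, and the median over the 14 was -0.09 on the log2 scale. Hapln4, a link protein of the perineuronal net, rose by 0.54 (SE 0.15, adjusted p = 0.0399). Unc5b, a netrin receptor that endothelial cells also make, fell by 1.33 (SE 0.26, adjusted p = 0.00881), and Vipr2, a receptor for vasoactive intestinal peptide, fell by 3.43 (SE 0.89, adjusted p = 0.0283). Vipr2 stood at 14.6 CPM in control vehicle 2 and under 1 CPM in all other libraries. None of the 14 was called in this comparison without control vehicle 1, 2 and 3. Averaged over both kinds of offspring, Unc5b fell with rapamycin by 0.92 with all libraries (adjusted p = 0.00913) and by 0.55 over the 17 (adjusted p = 0.0298), the one gene of the 4 subtype lists that was called there both with and without those libraries.

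Sst, Npy and Cort, the peptide genes of somatostatin cells, were spread widely within the groups, except for Sst in control rapamycin. There the coefficient of variation of Sst CPM was 14.6%, against 25.1% to 46% in the other groups. For Sst, control vehicle 1 to 5 stood at 175, 40.7, 100, 97.1 and 106 CPM, control rapamycin 1 to 5 at 164, 145, 109, 147 and 134, MIR vehicle 1 to 5 at 207, 132, 112, 100 and 98.6, and MIR rapamycin 1 to 5 at 112, 164, 89.2, 114 and 97.6. All 4 groups overlapped. Rapamycin in control offspring measured 0.43 on the log2 scale (SE 0.27, adjusted p = 0.321), and 0.45 over the 17 libraries. MIR vehicle 1 carried the highest Sst level of all libraries and control vehicle 2 the lowest.

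Npy, an inhibitory peptide also made by neurogliaform cells, came nearest to a further call. Control vehicle 1 to 5 stood at 44.7, 16.2, 26.9, 37.0 and 39.4 CPM and control rapamycin 1 to 5 at 85.0, 58.8, 43.3, 44.9 and 58.4, with control rapamycin 3 under the highest control vehicle library. Rapamycin in control offspring measured 0.82 on the log2 scale (SE 0.26, 95% interval 0.28 to 1.36), with an adjusted p of 0.0545 by edgeR's quasi-likelihood test, 0.02 by DESeq2 and 0.0239 by edgeR's likelihood ratio test. Over the 17 libraries it was 0.60 (adjusted p = 0.362). With 1 library left out at a time it was 0.65 to 0.96, with adjusted p-values of 0.038 to 0.133 by the quasi-likelihood test. Over all 35 alternatives it ranged from 0.15 to 0.96 and was called in 5. The part of GC content in this change was not tested. MIR vehicle 1 to 5 stood at 72.2, 67.0, 45.9, 38.2 and 46.9 CPM, and MIR rapamycin 1 to 5 at 58.2, 82.1, 54.3, 61.8 and 36.2, which overlapped fully with each other. MIR under vehicle measured 0.72 (SE 0.26, adjusted p = 0.176), and rapamycin in MIR offspring 0.11 (SE 0.26). Control rapamycin 1 had the highest Npy, Sst, Cort and Lamp5 of its group and the lowest Ndnf, Vip and Adarb2.

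Cort, a peptide closely related to somatostatin, was the least abundant in counts. Its groups ranged from 0.566 to 2.02 CPM in control vehicle, 1.32 to 2.69 in control rapamycin, 1.23 to 3.76 in MIR vehicle and 0.913 to 3.65 in MIR rapamycin, and all overlapped. No comparison of Cort reached an unadjusted p under 0.05 in edgeR's quasi-likelihood test, and intervals were wide: MIR under vehicle measured 0.56 on the log2 scale with a 95% interval of -0.22 to 1.34, which held both no difference and a difference of more than 1.

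Of these peptide genes Sst and Npy varied together from mouse to mouse, and Cort did so only in part of the libraries. With group means removed, Sst and Npy had a Pearson r of 0.838 over 20 libraries (permutation p = 1e-05, adjusted 0.00045 over 45 pairs, Spearman rho 0.797 with permutation p = 6e-05, adjusted 0.0027), where 1e-05 is the smallest p that 100000 permutations can give. It was 0.756 without the 2 libraries farthest from the median of Sst, control vehicle 1 and 2. Over the 17 libraries r was 0.775 (permutation p = 0.00021, adjusted p = 0.00315, rho 0.797 with p = 0.00023, adjusted 0.0103), and without control rapamycin 1 as well it was 0.779. Sst and Cort had r = 0.833 over the 17 libraries (permutation p = 7e-05, adjusted p = 0.00315, rho 0.569 with p = 0.0194, adjusted 0.175), and 0.645 without MIR rapamycin 2 and MIR vehicle 1, the 2 farthest in Sst. Over all 20 libraries Sst and Cort had r = 0.285 (permutation p = 0.222, adjusted p = 0.371) and Npy and Cort r = 0.4 (permutation p = 0.0819, adjusted p = 0.215), against 0.673 for Npy and Cort over the 17 (permutation p = 0.00307, adjusted p = 0.0345). Of the 45 pairs, 8 had an adjusted p under 0.05 over 20 libraries, 4 over the 17 and 5 over the 16 without control rapamycin 1 too, and Sst with Npy was the only pair of the first 8 among the 4 or the 5. Signs differed for 18 of the 45 pairs between 20 and 17 libraries. Cort and Adarb2 had r = -0.73 over the 20 (adjusted permutation p = 0.0027) and -0.62 over the 17 (adjusted permutation p = 0.0792). The longest transcripts of Sst, Npy and Cort, at 721, 566 and 677 bases, were shorter than those of the other members. Their GC content was 56%, 53.7% and 58.5%, and Adarb2 had 6721 bases and 46.4% GC. The part of length and GC in these correlations was not tested.

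**Figure D5:**
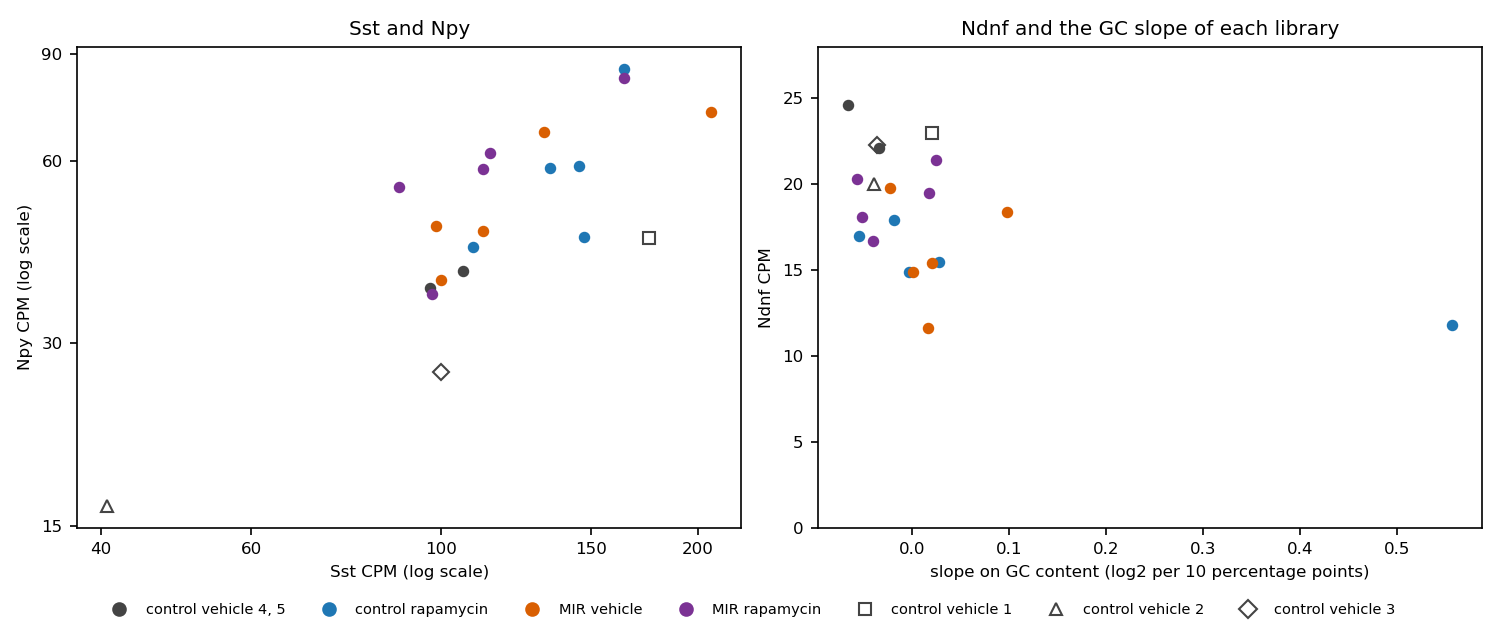
Left, CPM of Npy against Sst on log axes in 20 libraries, and right, CPM of Ndnf against the slope of each library on GC content (log2 per 10 percentage points), with open symbols for control vehicle 1 to 3. Sst and Npy rise together through all groups, and control rapamycin 1 lies alone at a slope of 0.556 with 11.8 CPM of Ndnf.

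Of 11 further genes of somatostatin cells, 0 rose and 2 fell after rapamycin in control offspring, with a median of -0.49 on the log2 scale over all 20 libraries and 0.14 over the 17. Nos1, which makes nitric oxide in long-range projecting cells, fell by 1.23 on the log2 scale (SE 0.37, adjusted p = 0.0469 by edgeR's quasi-likelihood test) and stood at 195 and 270 CPM in control vehicle 1 and 2 against 35.4 to 76.3 in the other 18 libraries. Moxd1, a monooxygenase-like protein, fell by 0.71 (SE 0.20, adjusted p = 0.0362). Over the 17 libraries neither was called, and Nos1 measured 0.05.

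Vip and Lamp5, of the caudal lineage, were lowest in control vehicle 1 and 2. For Vip, control vehicle 1 to 5 stood at 1.39, 17.5, 46.6, 49.6 and 48.3 CPM, control rapamycin 1 to 5 at 50.6, 66.4, 76.0, 53.6 and 59.1, MIR vehicle 1 to 5 at 54.2, 61.1, 52.4, 40.5 and 70.9, and MIR rapamycin 1 to 5 at 72.9, 81.3, 70.0, 58.9 and 62.9. Every control rapamycin library was above every control vehicle library, by a small margin in the case of control vehicle 4 and control rapamycin 1. Rapamycin in control offspring measured 0.90 on the log2 scale (SE 0.46, adjusted p = 0.21 by edgeR's quasi-likelihood test) and 0.32 without control vehicle 1, 2 and 3 (SE 0.18, adjusted p = 0.441). In MIR offspring it measured 0.31 over either set, with an SE of 0.46 over all 20 and 0.13 over the 17 (95% interval 0.03 to 0.59, adjusted p = 0.534).

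For Lamp5, control vehicle 1 to 5 stood at 55.1, 71.6, 175, 202 and 197 CPM. The other groups ranged from 148 to 305 (control rapamycin), 121 to 279 (MIR vehicle) and 181 to 259 (MIR rapamycin), and no group separated from another. Rapamycin in control offspring measured 0.69 on the log2 scale (SE 0.30, adjusted p = 0.145) and 0.17 over the 17 libraries (95% interval -0.35 to 0.69). Vip and Lamp5 had r = 0.732 over the 20 libraries (permutation p = 8e-05, adjusted p = 0.0018, rho 0.62 with permutation p = 0.00426, adjusted 0.0479) and 0.549 without control vehicle 1 and 4, but r = 0.191 over the 17 (permutation p = 0.465, adjusted p = 0.751). Lamp5 and Pvalb had r = -0.289 over the 20 libraries (permutation p = 0.218, adjusted p = 0.371) and the opposite sign over the 17 (r = 0.8, permutation p = 0.00014, adjusted p = 0.00315, rho 0.716 with p = 0.00191, adjusted 0.043). The latter was 0.584 without MIR vehicle 1 and 2, the farthest in Pvalb.

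Of 11 further genes of VIP cells, 0 rose and 2 fell after rapamycin in control offspring, and of 12 of LAMP5 and NDNF cells 0 rose and 3 fell. The medians were 0.30 and -0.32 on the log2 scale, against -0.03 over all tested genes, and -0.01 and -0.32 over the 17 libraries. Calb2, the calcium buffer calretinin, fell by 1.91 on the log2 scale (SE 0.44, adjusted p = 0.0183 by edgeR's quasi-likelihood test) with 50.2 and 93.9 CPM in control vehicle 1 and 2 against 7.27 to 14.7 in the other libraries. Chat, the enzyme that makes acetylcholine, fell by 3.82 (SE 1.16, adjusted p = 0.0484) with 34.8 CPM in control vehicle 1, the library with striatal markers, and at most 1.13 elsewhere. Pax6, a transcription factor, fell by 1.81 (SE 0.52, adjusted p = 0.0402) with 86.0 CPM in control vehicle 2 and 4.76 to 10.6 elsewhere. Kit, a receptor tyrosine kinase, fell by 0.99 (SE 0.29, adjusted p = 0.0443) and Dock5, an activator of Rac, by 0.76 (SE 0.23, adjusted p = 0.0455). None of the 5 was called over the 17 libraries, where Dock5 measured -0.57 (adjusted p = 0.244) and Kit -0.38 (adjusted p = 0.397).

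Lhx6, the transcription factor of the medial lineage, lay within narrow ranges outside control vehicle. Control vehicle 1 to 5 stood at 59.4, 9.78, 21.9, 22.2 and 24.2 CPM, control rapamycin 1 to 5 at 28, 28.3, 26.7, 23.9 and 28.4, MIR vehicle 1 to 5 at 24.4, 25.7, 24.6, 21.7 and 22.0, and MIR rapamycin 1 to 5 at 21.4, 23.5, 22.2, 23.3 and 23.0. Every MIR rapamycin library was under every control rapamycin library. The difference was -0.25 on the log2 scale with an SE of 0.27 over all 20 libraries (adjusted p = 0.799 by edgeR's quasi-likelihood test) and of 0.07 over the 17 (95% interval -0.40 to -0.09, adjusted p = 0.124), where control vehicle 1 and 2, the highest and the lowest of all libraries, did not enter the spread. Lhx6 shares 104 exon bases (2.16%) with Gm27953 on the same strand, so reads there are uncertain.

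Adarb2, of the caudal lineage, stood at 72.1, 43.3, 41.3, 37.4 and 39.1 CPM in control vehicle 1 to 5 and at 27.1, 40.7, 37.1, 34.7 and 34.5 in control rapamycin 1 to 5. MIR vehicle ranged from 30 to 38.7 and MIR rapamycin from 38.2 to 41.9. Control vehicle overlapped both control rapamycin and MIR vehicle. Rapamycin in control offspring measured -0.42 on the log2 scale (SE 0.15, adjusted p = 0.0736) and -0.14 over the 17 libraries (adjusted p = 0.654), and MIR under vehicle -0.40 (SE 0.15, adjusted p = 0.182) and -0.11. The rapamycin effects differed by 0.61 between MIR and control offspring (SE 0.21, adjusted p = 0.331), and by 0.33 over the 17 libraries. Other lineage factors were called in part after rapamycin in control offspring. Of 5 tested medial factors 1 rose and 1 fell, which was Etv1, by 1.17 on the log2 scale (SE 0.27, adjusted p = 0.0198), and of 6 caudal factors Prox1 fell by 0.81 (SE 0.22, adjusted p = 0.0326). Over the 17 libraries Etv1 measured -0.96 (adjusted p = 0.101) and Prox1 -0.31 (adjusted p = 0.423), and neither was called.

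The 15 genes listed as pan-GABAergic gave no call. Among them were Gad1 and Gad2 for GABA synthesis, Slc32a1 for its vesicular transport, the Dlx factors and Zcchc12. Whether each listed gene is used by all GABAergic cells was not tested. Of all tested genes, 5.23% were called for rapamycin in control offspring with all libraries. Without control vehicle 1, 2 and 3 that comparison called 36 of 17993 genes. In edgeR's quasi-likelihood test 0 of the 15 listed genes were called in any of the 7 comparisons, with or without these libraries. At an unadjusted p under 0.05 and with all libraries, 1 passed for MIR under vehicle (Zcchc12), 1 for rapamycin in control offspring (Dlx1), 1 for the average MIR effect (Zcchc12) and 0 elsewhere. Their median after rapamycin in control offspring was -0.01 on the log2 scale. Their summed level was 3180 CPM in control vehicle 1 and 1240 to 1540 in the other 19 libraries. Their mean log2 level against the median library was 1.14 in control vehicle 1, -0.94 in control vehicle 2 and -0.09 to 0.20 elsewhere. In bulk tissue fewer cells of a type and less RNA per cell cannot be told apart, for these genes and for the 10 members alike.

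The spread between mice over all 20 libraries was above that of genes of like abundance for most members. The biological coefficient of variation, fitted within groups over these 20, was 51.3% for Vip, 38.4% for Cort, 32.8% for Lamp5, 32.2% for Pvalb, 30% for Lhx6, 29.9% for Sst, 28.3% for Npy and 23.8% for Reln. Among the 500 genes nearest in abundance, 99.6% had a lower value than Vip and 94% a lower one than Reln. Ndnf at 14.6% and Adarb2 at 16.7% were nearer to such genes, of which 51% and 74.4% were lower. Cort was also nearer to genes of its own low level, of which 79.2% were lower and whose median was 27.8%. For part of the members much of this spread lay in control vehicle 1, 2 and 3, and for others most of it remained. The plain coefficient of variation of CPM over all libraries went from 52.2% over 20 to 15.7% over the 17 for Pvalb, from 35.4% to 9.6% for Lhx6, from 41.2% to 13.6% for Reln and from 34.7% to 18.4% for Vip. It also fell for Lamp5, from 31.6% to 20.8%, and for Adarb2, from 22.2% to 10.9%. It went from 30.3% to 25.2% for Sst, from 34.4% to 28% for Npy and from 44.9% to 40.9% for Cort. For Ndnf it was 19.7% over 20 and 19.9% over the 17.

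The genes whose levels followed each member most closely also changed with the libraries used, as a description over 15040 genes of at least 1 CPM with group means removed. Over 20 libraries Pvalb was followed by Grid2ip (r = 0.937), a scaffold of Purkinje cell synapses, Kcnc1 (0.926) and Kcng4 (0.916), and over the 17 by Vamp1 (0.934), Fbxo47 (0.916) and Scn4b (0.907). Lhx6 was followed over 20 by Sp9 (0.964), Smpd3 (0.961) and Arpp21 (0.958), with r = 0.0857, 0.0531 and 0.557 over the 17. Ndnf was followed by Cdc16 (0.782), Tmem5 (0.78) and Gng10 (0.764), which kept r = 0.856, 0.801 and 0.807 over the 17. Reln was followed by Itfg2 (0.877), Vldlr (0.858), a reelin receptor, and Slc1a6 (0.857), a glutamate transporter of Purkinje cells. Sst was followed by Vti1b (0.937), Cnih2 (0.931) and Ppp1r9b (0.926), Npy by Ppp1r1a (0.877), Map3k10 (0.874) and Zfp523 (0.872), and Cort by Srcin1 (0.876) and Nbl1 (0.856). Vip was followed by Gm11549 (0.989), Nrn1 (0.985) and Serpinb8 (0.982), Lamp5 by Camk2g (0.958) and Sytl2 (0.933), and Adarb2 by Ap1s2 (0.942), Crebl2 (0.908) and Mid2 (0.907).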

How the data were processed

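Poly(A)-selected RNA was prepared with a stranded kit. Per the labels and methods, the authors aligned reads to mm10 with STAR (2.4.0) and counted them per gene with HTSeq (0.6.1), both versions from the submitters' processing notes. The deposited table holds raw counts without normalization, 17846282 to 24460104 per library. The sources used here do not give strand use in counting. The methods say that outlying libraries were removed by the authors and do not name them. Litters are not labelled, so p-values measure the spread between mice taken as independent.

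In R (4.3.3), edgeR (4.0.16) was used with filterByExpr (minimum count 10, minimum total 15), TMM scaling and the quasi-likelihood test, with all 20 libraries and 1 mean per group. Benjamini-Hochberg adjustment covered all tested genes. Genes called had an adjusted p below 0.05 and a log2 fold change beyond 0.5 in either direction. Log2 CPM took a prior count of 2. Intervals are 95%. Permutation tests were two-sided and exchanged values, with group means removed, freely over all libraries used. The removed means and the unequal spread of the groups were not allowed for, so these p-values can be too small. The model was tested on simulated data. GC content came from the longest GENCODE M21 transcript (99.7% of tested genes), exons from GENCODE M21 on mm10 and promoters from RefSeq. Alternatives were DESeq2 (1.42.0), limma (3.58.1) voom, other scaling, filters and covariates, a replicate block and omitted libraries. Libraries of a group differed by a chi-square per degree of freedom of at least 5.14, so none was a copy of another in its group. Pairs from different groups were not compared in this way. The members, lists and tests were chosen with earlier results of these data known. Named genes beside the members are the 3 of most like pattern for each and the called genes of each list described, of which some are not reported here. Chosen after their values were seen or as list examples are Gad1, Gad2, Slc32a1, the Dlx factors, Zcchc12, Neurod6, Tbr1, Lhx1 and Lhx5.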

Additional observations from a re-analysis of the deposited data

Results flagged for a closer look

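Among 40 gene and group combinations of 5 libraries, 4 held a library whose gap to the nearest other exceeded the critical share of the range (0.71), and chance alone gives about 1 in 20 groups. Control vehicle 2 was high in Pvalb at 192 CPM, where the next library of its group was 77.9, and in Reln at 317, where the next was 161. The same library held 2940 CPM of summed cerebellar markers. Control vehicle 1 was high in Adarb2 at 72.1 CPM, where the next was 43.3, and held 5760 CPM of summed striatal markers. Control rapamycin 1 was high in Cort at 2.69 CPM, where the next was 1.54, and had the slope of 0.556 on GC content. The part of these markers and of this slope in the 4 values was not tested.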

How the results depend on the processing

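For MIR against control offspring under vehicle, where 0 members were called, 1 was called by each of DESeq2, a likelihood ratio test in edgeR and voom in limma with sample weights. For rapamycin in control offspring, with 2 called members, limma voom, no filter on low counts and, added after seeing the data, leaving out control vehicle 1 and 2 gave 1. The count was 0 with only the compared groups in the fit, without control vehicle 1, 2 and 3, with striatum, cerebellum and choroid plexus scores or the cortical excitatory score as covariates, and in 2 alternatives added after seeing the data, which left out control rapamycin 1 as well or took the GC slope as a covariate. With 1 library left out it ranged from 0 to 3, and from 0 to 0 in the other 6 comparisons. Npy was called higher in that comparison in 5 of 35 alternatives (DESeq2, the likelihood ratio test, the pan-GABAergic score, and without control vehicle 1 or 5). Over all tested genes the calls for rapamycin in control offspring went from 906 to 36 without control vehicle 1, 2 and 3, 13 with only the compared groups, 136 with the cortical excitatory score, 0 with the 3 region scores, 276 without control vehicle 1 and 2, 74 without control rapamycin 1 as well, 509 with the GC slope, 425 with the replicate block and 588 by voom, but to 1312 by DESeq2, 1319 by the likelihood ratio test, 1133 with the pan-GABAergic score and 1351 with no fold threshold, and those for MIR under vehicle from 17 to 391 by DESeq2, 419 by the likelihood ratio test, 63 with no filter and 109 with the pan-GABAergic score. Replicate numbers did not pair the libraries: 4 of 30 correlations of same-numbered deviations were over 0.1 (-0.145 to 0.204), and a fit with the replicate block called 1. Pairs of members with an adjusted p under 0.05 numbered 8, against 4 over the 17 libraries and 5 when control rapamycin 1 was dropped too. No called value changed sign. Of the members' fold changes under the alternatives, 2224 kept direction and side of the threshold or moved by under 1 SE, 154 uncalled values moved by more, 8 gained a call and 34 lost one. The depth limits Cort, with 13 to 79 counts.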

Other observations

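Genes around the peptides of the interneurons were called in small numbers after rapamycin in control offspring. Of 14 receptors for these peptides and for reelin, 0 rose and 2 fell, Vldlr by 0.57 on the log2 scale (SE 0.14, adjusted p = 0.0215 by edgeR's quasi-likelihood test) and Vipr2, named above. Vldlr stood at 118 and 173 CPM in control vehicle 1 and 2 and at 63.1 to 96.2 in the other libraries, and measured -0.28 over the 17 libraries (adjusted p = 0.267). Of 10 genes of peptide processing and storage, 1 rose: Vgf, a secretory granule protein, by 0.86 (SE 0.22, adjusted p = 0.0256), with 73.3 to 213 CPM in control vehicle and 265 to 366 in control rapamycin. It measured 0.51 over the 17 libraries (adjusted p = 0.248). Of 14 activity-induced genes 2 rose, Nptx2 by 1.08 (SE 0.29, adjusted p = 0.0326) and Inhba by 0.81 (SE 0.22, adjusted p = 0.0342), and neither was called over the 17, where Inhba measured 0.75 (adjusted p = 0.178). The median of the 14 in this comparison turned from 0.48 on the log2 scale over all 20 libraries to -0.35 over the 17, where 6 of the 14 had an unadjusted p under 0.05 in either direction. The mean log2 level of the 14 stood at -1.77 and -2.01 against the median library in control vehicle 1 and 2. Averaged over both kinds of offspring 0 of the 14 were called for rapamycin with all 20 libraries, while over the 17 libraries the immediate early genes Npas4 (-1.03, adjusted p = 0.019), Nr4a1 (-0.96, adjusted p = 0.0349) and Junb (-0.89, adjusted p = 0.0404) fell. With all 20 these were -0.64, -0.48 and -0.53 (adjusted p = 0.289, 0.474 and 0.329).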
